A study of Rattus norvegicus with 6 samples.

Results

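JB is a cell line derived from a reflux-induced esophageal tumor of the rat. Its total RNA was compared on 2 dye-swapped 2-colour cDNA arrays with a pool that mixed RNA of 2 normal rat esophageal cell lines, Normal1 and Normal2, in equal parts. These are 2 of the 6 arrays of the series; the others carry JA and Amy, likewise reflux-induced esophageal tumor cell lines, each against the same pool on a dye-swapped pair. No group received a treatment, and the strain, sex, passage and derivation of the lines are not given in the sources used here. JB is a single line and the pool a single mixture of cultured cells, so the data describe this line against this mixture, with no spread between tumors or between normal cultures.

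The line carried Cy3 on 1 array and Cy5 on the other, with the pool in the opposite dye each time. Each deposited value is a log ratio, read here as the log2 of JB over the pool: 1 means a 2-fold higher signal in JB and -1 a 2-fold lower one. The base is not stated and was taken as 2, and JB as numerator is the likely direction because the titles name the line first. Read the other way, every higher and lower below is exchanged, so that 395 genes would be higher and 207 lower in JB. The arrays hold 16128 spots in 8064 adjacent pairs, each pair a cDNA clone. All 3158 genes named by a single symbol were described, as the mean over their spots on each array, and the remaining 4022 clones had no single symbol. Pairs of values below give the array with JB in Cy3 first and the array with JB in Cy5 second. Both arrays measure the same line, so there is no biological replicate, no test and no p-value for JB against the pool.

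Reflux of gastric and duodenal contents injures the esophageal lining, and tumors can follow chronic injury in rats as in people. The normal esophagus is lined by a stratified squamous epithelium over a connective tissue of fibroblasts, collagen, vessels and muscle. Dividing cells make the cyclins, kinases and replication factors of the cell cycle, whereas fibrillar collagens and small leucine-rich proteoglycans such as decorin are made mainly by fibroblasts.

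JB and the pool differed by at least 2-fold in genes of many kinds, more often with the lower signal in JB. A gene was called higher or lower when its log2 ratio had the same sign and a size of at least 1 on both arrays. By this rule 207 of 3158 named genes were higher in JB (6.55%) and 395 were lower (12.5%), 602 in all (19.1%). The median log2 ratio was 1.51 among the higher genes and -1.88 among the lower ones. The lower side reached further: a size of at least 3 on both arrays was met by 9 higher and 81 lower genes, and a size of at least 5 by 1 higher and 19 lower genes. Among the clones without a single symbol, 219 were higher and 422 lower.

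Over named genes the 2 arrays correlated at r = 0.858, a description across genes that share the same RNA, and 2559 genes (81.0%) had the same sign on both. Against the same pool and in the same dye, JB and JA arrays correlated at 0.869 in Cy3 and 0.882 in Cy5. JB and Amy arrays correlated at 0.852 and 0.858. The r between the JB arrays is therefore no measure of a profile particular to JB. The median gap between arrays was 0.32 log2 units over all named genes, 0.24 over the higher genes and 0.31 over the lower ones. The rule for a call leaves out genes whose arrays disagree in sign, so the gaps of called genes are no measure of agreement. The 2 spots of a clone correlated at 0.920 with JB in Cy3 and at 0.907 with JB in Cy5. The median ratio of all spots was -0.05 and -0.12. JA and Amy were measured against the same pool, so their values below are set beside those of JB and are not independent of them.

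**Figure D1:**
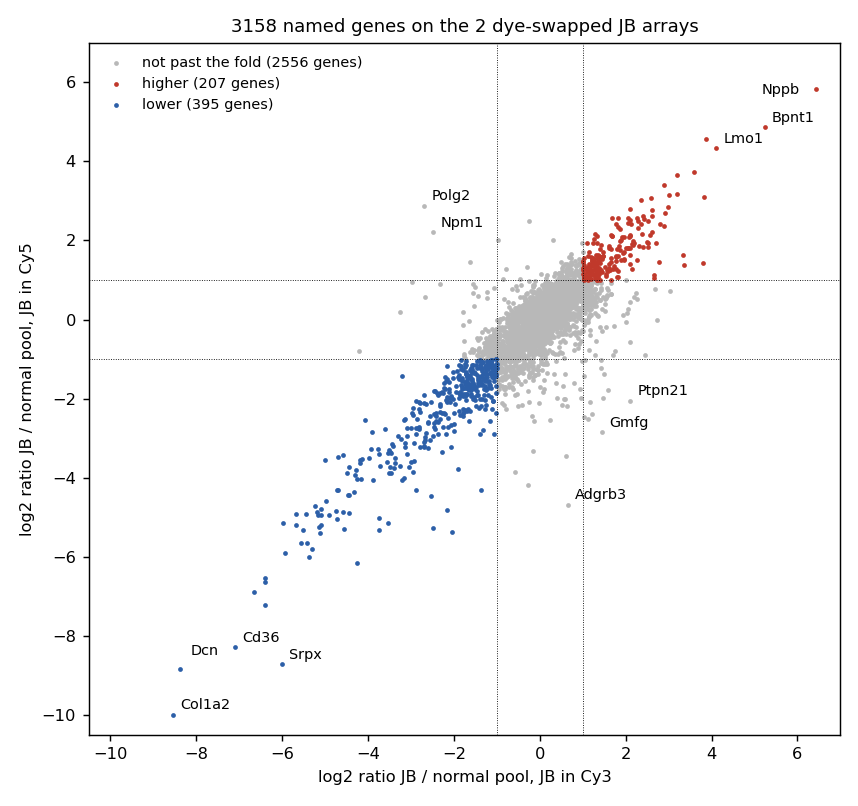
Log2 ratio of JB over the normal pool for each of 3158 named genes, with JB in Cy3 (horizontal axis) and in Cy5 (vertical axis). The points lie along the diagonal (r = 0.858). The 395 lower genes spread further from 0 than the 207 higher genes.

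The sequences just upstream of 6 genes are shown to give context for their ratios: 4 higher cell division genes, the highest gene of all, Nppb, and the lowest, Col1a2. Each is the 250 bases before the annotated start, 5′ to 3′ on the gene's strand, from RefSeq on the assembly GRCr8. Capitals mark 4 motifs, searched on both strands: CCAAT (or ATTGG, the CCAAT box), TATAAA (or TTTATA, the TATA box), TTTGAA (or TTCAAA, the letters of the cell cycle genes homology region) and GGGCGG (or CCGCCC, the GC box). No motif contains another.
Cdc20, chr5:137255800-137256049 (-): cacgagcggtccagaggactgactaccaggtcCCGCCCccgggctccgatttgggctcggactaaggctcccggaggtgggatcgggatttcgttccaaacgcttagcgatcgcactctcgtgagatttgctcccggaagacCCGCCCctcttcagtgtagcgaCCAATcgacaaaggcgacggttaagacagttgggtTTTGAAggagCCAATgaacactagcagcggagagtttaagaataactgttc
Cdk1, chr20:19265043-19265292 (+): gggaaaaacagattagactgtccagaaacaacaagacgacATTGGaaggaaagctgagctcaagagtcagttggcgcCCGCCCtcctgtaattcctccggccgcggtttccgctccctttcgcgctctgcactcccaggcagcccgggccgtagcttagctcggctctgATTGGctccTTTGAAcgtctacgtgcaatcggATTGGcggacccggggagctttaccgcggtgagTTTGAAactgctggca
Cks2, chr17:13727520-13727769 (-): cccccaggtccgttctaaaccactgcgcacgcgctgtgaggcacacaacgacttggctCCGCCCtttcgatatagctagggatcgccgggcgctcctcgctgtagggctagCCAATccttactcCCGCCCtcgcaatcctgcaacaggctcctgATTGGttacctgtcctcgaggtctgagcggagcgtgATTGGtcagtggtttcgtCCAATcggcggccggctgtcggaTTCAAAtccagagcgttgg
Pttg1, chr10:28406327-28406576 (-): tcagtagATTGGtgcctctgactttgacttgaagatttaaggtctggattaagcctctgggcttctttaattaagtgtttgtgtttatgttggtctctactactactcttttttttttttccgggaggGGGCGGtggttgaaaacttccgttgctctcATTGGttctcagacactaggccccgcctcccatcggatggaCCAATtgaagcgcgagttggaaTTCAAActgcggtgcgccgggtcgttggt
Nppb, chr5:163699758-163700007 (+): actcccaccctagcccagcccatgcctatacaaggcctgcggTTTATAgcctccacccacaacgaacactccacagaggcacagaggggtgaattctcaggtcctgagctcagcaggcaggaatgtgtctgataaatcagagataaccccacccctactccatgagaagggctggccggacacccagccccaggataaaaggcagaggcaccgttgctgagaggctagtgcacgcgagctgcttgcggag
Col1a2, chr4:33518307-33518556 (+): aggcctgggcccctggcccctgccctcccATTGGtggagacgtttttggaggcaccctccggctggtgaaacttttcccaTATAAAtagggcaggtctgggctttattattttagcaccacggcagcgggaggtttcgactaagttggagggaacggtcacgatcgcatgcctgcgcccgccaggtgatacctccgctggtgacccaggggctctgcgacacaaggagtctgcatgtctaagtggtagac
Cdc20, Cdk1, Cks2 and Pttg1 were picked after their values and sequences were seen, as the higher cell cycle genes whose window holds TTTGAA as well as a CCAAT box. The CCAAT box was found in 7 of the 12 windows of higher cell cycle genes (58.3%), in 7 of the 19 windows of cell cycle genes not past the fold (36.8%), and in 34.3% of all 27457 RefSeq windows of this length. TTTGAA was found in 4 of 12 (33.3%), 3 of 19 (15.8%) and 16.0%. In Cdc20 the TTTGAA begins 51 bases before the start, between CCAAT boxes at 86 and 41. Cdk1 has TTTGAA at 72 and 16 and 3 CCAAT boxes, Cks2 has 4 CCAAT boxes, and Pttg1 has 3. The Col1a2 window holds the letters of 1 CCAAT box and of 1 TATA box, the latter 170 bases before the start. The Nppb window holds the letters of 1 TATA box on the opposite strand, 208 bases before the start. Of the 2643 named genes with a window, 34.7% had CCAAT, 9.46% TTTGAA, 58.6% the GC box and 7.87% the TATA box. A match describes letters in the window and no binding was measured.

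The gene furthest above the pool was Nppb, the precursor of brain natriuretic peptide, a hormone made mainly by the heart. Its log2 ratio was 6.43 and 5.84, a mean of 6.13 or 70.1-fold. The pool was the lower side on both arrays, and JA and Amy had means of 6.28 and 5.61. Bpnt1, a phosphatase that clears a by-product of sulfation, had 5.24 and 4.86 (mean 5.05, 33.2-fold), against 4.62 in JA and 3.32 in Amy. Arpc1b, a subunit of the Arp2/3 complex that nucleates actin branches, had 3.87 and 4.57 (mean 4.22). Lmo1, a LIM-domain cofactor of transcription, had 4.11 and 4.33 (mean 4.22). The Cy3 array gave the larger ratio for Nppb and Bpnt1 and the Cy5 array for Arpc1b and Lmo1.

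The next ranks held transporters, surface proteins and secreted factors. Slc5a2, the sodium-glucose cotransporter best known from kidney tubules, had 3.59 and 3.74, and Tspan8, a tetraspanin of gastrointestinal epithelia, 3.83 and 3.09. Penk, the precursor of the enkephalins, had 3.20 and 3.66. Fgfbp1, a carrier that frees fibroblast growth factors from the matrix, had 3.01 and 3.16. Tpst2, which sulfates tyrosines of secreted proteins, had 2.98 and 2.84, and its mean of 2.91 stood beside 1.27 in JA and 1.22 in Amy. Chtf8, of a complex that loads the replication clamp, had 2.59 and 3.07, and Cel, the bile salt-dependent lipase, 2.90 and 2.70. Transforming growth factor Tgfb2 had 2.61 and 2.77, a mean of 2.69 against 1.14 in JA and 0.74 in Amy. The remaining 3 of the 15 highest genes, Ccne1, Plk1 and Cdk1, belong to the cell cycle.

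At the low end stood Col1a2, a chain of type I collagen, at -8.54 and -9.995, a mean of -9.27 or 616-fold lower in JB. Its 2 clones had means of -9.64 and -8.89. Dcn, which encodes decorin, had -8.37 and -8.84 (mean -8.61, 390-fold lower), with clones at -9.57 and -7.64. Col1a2 had means of -8.39 in JA and -9.04 in Amy, and Dcn of -8.79 and -9.60. Cd36, a receptor that takes up fatty acids, had -7.09 and -8.28, and Srpx, a secreted sushi-repeat protein, -6.001 and -8.72, the widest gap between arrays among the 15 lowest genes. Spot intensities were not used, so a ratio of this size cannot be told from a bound set by a channel near background.

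Signaling proteins followed. Rcan2, a regulator of the phosphatase calcineurin, had -6.39 and -7.21. Midkine, Mdk, a heparin-binding growth factor induced by retinoic acid, had -6.66 and -6.88, and Crabp2, which carries retinoic acid to the nucleus, -5.93 and -5.89. Bcl10, an adaptor of NF-kappaB signaling, had -6.41 and -6.63. Lgals7, the galectin of stratified epithelia, had -6.41 and -6.53, and its 3 clones ranged from -7.01 to -5.51. Pln, the phospholamban that restrains the calcium pump of muscle, had -5.37 and -6.02 (mean -5.69), below JA at -3.17 and Amy at -3.77. Myoz2, a sarcomere protein, had -5.57 and -5.65. The protease Prss23, the scavenger receptor Colec12, the ectonucleotidase Entpd1 and the Wnt inhibitor Sfrp2 completed the group with means of -5.57, -5.55, -5.53 and -5.44.

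**Figure D2:**
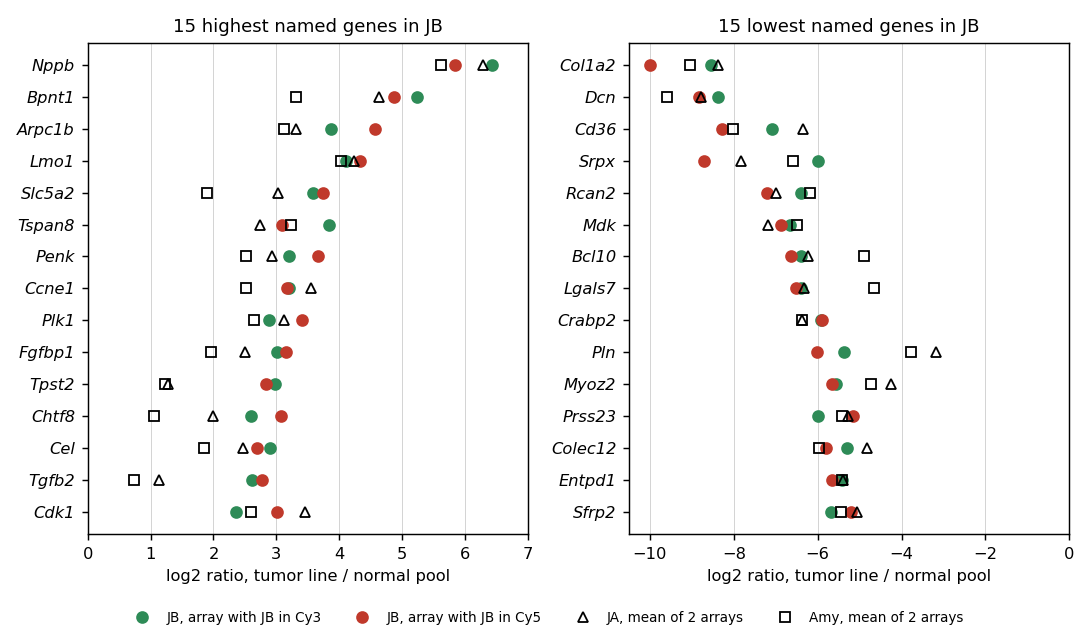
Log2 ratios over the normal pool of the 15 highest and 15 lowest named genes of JB. Points show the 2 JB arrays and the means of JA and Amy. Nppb (mean 6.13) and Col1a2 (mean -9.27) form the ends, and the JB arrays lie on the same side of 0 for each gene.

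To describe groups, 1408 of the named genes were placed on 31 lists by their function. The counts of each list stand beside shares of 6.55% higher and 12.5% lower over all named genes. Cell cycle and replication genes were higher in 13 of 34 measured cases and lower in 0, with a median log2 ratio of 0.64 against -0.06 over all named genes. Ccne1, the cyclin that drives entry into S phase, had 3.19 and 3.17. The mitotic kinase Plk1 had 2.89 and 3.41, and Cdk1, the central mitotic kinase, 2.36 and 3.02. Cdc20, which switches on the ubiquitin ligase that starts anaphase, had 2.81 and 2.41, with its clones between 2.58 and 2.64. Every value of these 4 genes exceeded 2. In the same order, the means were 3.55, 3.11, 3.45 and 2.98 in JA and 2.51, 2.64, 2.59 and 2.53 in Amy.

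Of the replication genes on the list, 4 were past the fold. Rfc4 and Rfc2, subunits of the clamp loader, had 2.35 and 2.43, and 1.26 and 2.02. Fen1, a nuclease of Okazaki fragments, had 2.53 and 1.84. Pcna, the clamp itself, had 1.29 and 1.06, and its 3 clones had means from 1.10 to 1.21. The replication genes Orc2, Pola1, Pole3, Prim2, Rfc1 and Top1 were not past the fold. Of the regulators, Ccnd1 (cyclin D1) had 1.24 and 1.51, its partner kinase Cdk4 1.47 and 1.70, the securin Pttg1 1.93 and 1.69, Cks2 1.54 and 1.11, and the checkpoint protein Bub3 1.01 and 1.25. Ccnb2, a mitotic cyclin, was the lowest member at -0.83 and -2.16, not past the fold on both arrays, and its 2 clones had means of -2.81 and -0.18. Aurkb, another mitotic kinase, had -0.65 and -0.63.

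Matrix genes lay on the other side. Of 31 measured members 17 were lower and 3 higher, with a median of -2.01. Among the fibrillar collagens, Col3a1 had -5.52 and -5.32 and Col1a1 -3.74 and -5.03, beside Col1a2 above. Col5a1, a fibrillar collagen as well, was not past the fold, with clone means of -0.41 and -1.65. Sparc, a matricellular protein that binds collagen, had -5.13 and -5.25, with 4 clones from -5.86 to -4.66, and a mean of -5.19 against -3.83 in JA and -3.52 in Amy. Mgp, an inhibitor of calcification, had -4.70 and -4.32, elastin (Eln) -2.93 and -3.12, and the microfibril protein Mfap5 -3.98 and -3.49. Sdc2, a heparan sulfate proteoglycan of the cell surface, had -4.45 and -4.89, below JA (-2.88) and Amy (-2.92) in mean. The other lower members were Dcn, Srpx, Col14a1, Fbn1, Gpc3, Loxl1, Loxl2, Mfap2 and Plod2.

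The 3 higher matrix genes were a metalloprotease inhibitor and 2 non-collagen glycoproteins. Timp3 had 1.95 and 1.71. Nid2, a basement membrane nidogen, had 1.83 and 1.07, whereas it was below the pool in JA (-2.84) and Amy (-2.20). Fibronectin, Fn1, had 1.32 and 1.21, and its clones had means of 0.81 and 1.73. Col6a2, a chain of type VI collagen, had 0.88 and 0.97, just short of the threshold.

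**Figure D3:**
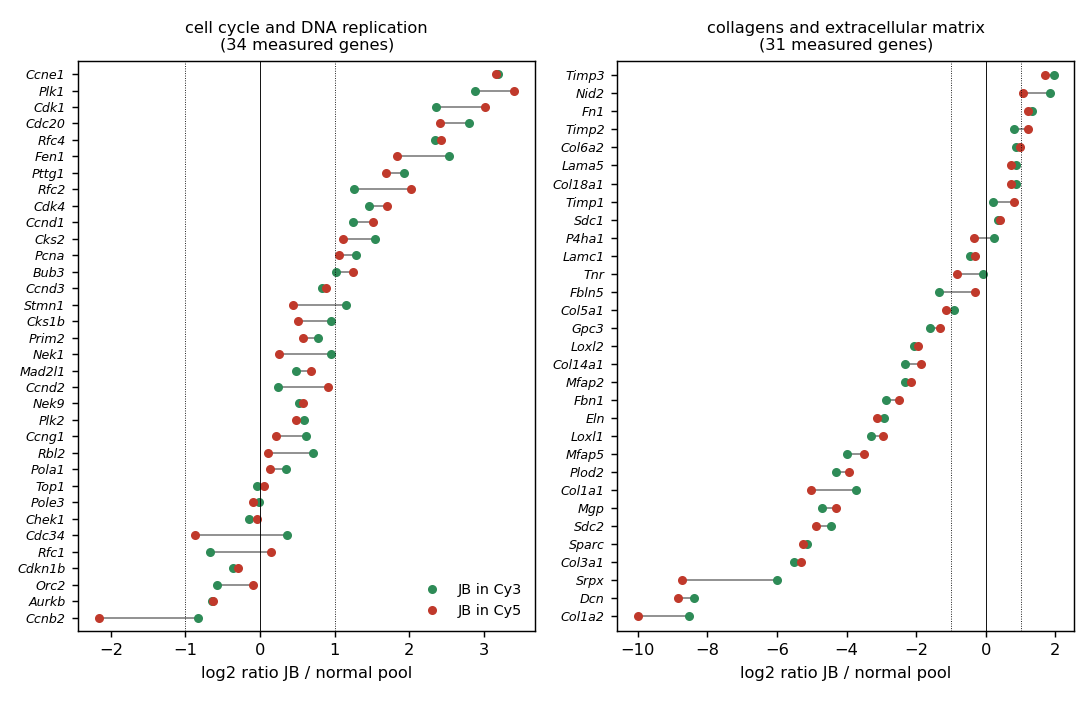
Log2 ratios of JB over the pool on both arrays for every measured member of the cell cycle list (34 genes) and of the matrix list (31 genes). Cell cycle members run from Ccnb2 (mean -1.50) to Ccne1 (3.18), and matrix members from Col1a2 (-9.27) to Timp3 (1.83).

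Markers of other cell types moved with the matrix genes. All 7 measured of 8 listed fibroblast markers were lower, with means from -9.27 to -1.68 and a median of -5.19. Of these 7 genes, Dcn, Col1a1, Col1a2, Col3a1 and Sparc are members of the matrix list as well. Of 9 measured leukocyte markers 6 were lower and 0 higher (median -3.44), of 4 muscle markers 3 were lower (median -3.71), and of 3 endothelial markers only Kdr was lower (median -1.50). These ratios were measured in RNA of whole cultures, where fewer cells of a type and less RNA per cell cannot be told apart, and a ratio gives no level in either sample. The part of other cell types in the result was not tested. With JB as numerator, the lower leukocyte and muscle markers had the higher signal in the pool, described as normal esophageal cell lines. The identity of the pool was not tested. Few of the markers that define the epithelium were among the named genes: 3 of 17 squamous markers, with Anxa1 higher (1.65 and 1.55), Lgals7 lower and Cstb at -0.99 and -0.69, and 6 of 16 columnar markers. The labelled identity of JB could not be checked with so few markers.

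The insulin-like growth factor axis had 6 of 10 measured members lower and 1 higher, with a median of -2.10. The ligands Igf2 and Igf1 had -3.09 and -2.95, and -2.96 and -2.40. Binding proteins, which hold the ligands in the extracellular space, were lower for 3 genes: Igfbp6 at -4.71 and -5.04, Igfbp4 at -4.44 and -3.72, and Igfbp5 at -4.57 and -3.43. Igfbp3 (-0.20 and -0.16) and Igfbp2 (0.57 and 0.96) were not past the fold. Igf2r, which carries Igf2 to lysosomes, was the higher member at 1.32 and 1.07, and the adaptor Grb10 was lower at -1.71 and -1.32. In JA and Amy the means were -5.66 and -6.13 for Igfbp6, -4.67 and -4.21 for Igfbp4, -3.38 and -3.81 for Igf2, and 1.65 and 1.77 for Igf2r.

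Other growth factors and receptors were mixed, with 5 of 39 higher, 6 lower and a median of -0.26. Besides Tgfb2, the higher ones were Tgfb3 (1.78 and 1.59), Vegfa, the angiogenic factor (1.45 and 1.59), Wnt4, and Fst. Fst, the activin antagonist follistatin, had 2.28 and 2.50, but its 2 clones had means of -0.48 and 5.26, so the gene value rests on 1 clone. Lower were Mdk, its relative pleiotrophin Ptn (-2.57 and -3.06), Egf (-3.90 and -2.84), Fstl1, Kdr and Pdgfra (-2.81 and -2.73, clones at -4.66 and -0.88). The mean of Ptn was -2.81 in JB, -1.80 in JA and -0.85 in Amy. Erbb2 had 0.04 and -0.48.

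MHC class II and leukocyte genes were lower in 7 of 14 and higher in 0, with a median of -1.67 (-0.99 by the first clone of each gene). The class II chains RT1-Ba and RT1-Db1 had -4.91 and -4.94, and -4.59 and -4.87, and the invariant chain Cd74 -3.52 and -3.36. Cd4 had -4.13 and -3.52, and the macrophage receptor Csf1r -3.94 and -3.28. C1qc had -2.27 and -1.84. Lyz2 had -2.47 and -1.80, with clones at -4.50 and 0.22. Tyrobp (0.64 and 0.70) and Cd3e (-0.36 and -0.64) were not past the fold, and Cd53 had opposite signs on the arrays (1.12 and -2.52).

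Of interferon and MHC class I genes 3 of 24 were lower (12.5%, the share over all named genes), 0 higher, with a median of -0.15. Stat3, the transcription factor of interleukin-6 signaling, had -5.11 and -5.40, a mean of -5.26 against -2.49 in JA and -0.91 in Amy. The interferon-induced Ifit2 and Ifi27l2b had -2.70 and -1.90, and -2.38 and -1.86. Cytokine and inflammatory genes had 8 of 29 lower and 1 higher (median -0.10). The B-cell chemokine Cxcl13 had -3.53 and -5.15 and Tnfsf12 -2.49 and -5.27, a wide gap between arrays. Cxcl16 was the higher member at 1.16 and 1.38, against 0.64 in JA and -0.29 in Amy. Bcl10, Colec12, Aloxe3, Ccl6, Il33 and Il6st were the remaining lower genes.

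Hypoxia and glycolysis genes had 7 of 23 higher and 3 lower around a median of -0.05. Hif1a, the oxygen-regulated transcription factor, had 2.71 and 1.93, the glycolytic enzyme Eno1 1.62 and 1.81, and Tkt of the pentose phosphate pathway 1.43 and 1.90. Ldha, lactate dehydrogenase, had 1.22 and 1.53, with clones at -0.03 and 2.78, so its sign depends on the clone. Bnip3, a mitochondrial protein induced by hypoxia, was lower at -4.75 and -4.85, as were the collagen hydroxylase Plod2 (-4.31 and -3.94) and the pyruvate kinase Pklr (-1.78 and -2.43). Well-known hypoxia targets stood on both sides, with Vegfa higher and Bnip3 lower.

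In fatty acid and cholesterol metabolism 5 of 45 genes were higher and 9 lower, with a median of -0.62 (-0.33 by the first clone of each gene). The higher ones included enzymes of synthesis: Fasn, fatty acid synthase, at 1.45 and 1.53, the desaturase Scd2 at 1.62 and 1.31 with 3 clones from 1.24 to 1.61, and Dhcr7 of cholesterol synthesis. Lpl, which releases fatty acids from lipoproteins, had 1.40 and 1.01. Among the lower ones were Cd36 and the enzymes of fatty acid oxidation Hadh (-2.15 and -2.07) and Eci1 (-2.23 and -1.60). Soat1, which esterifies cholesterol, had -1.60 and -1.78, but its clones had means of -5.74 and 2.37. Peptide hormone genes had 2 of 12 higher, Nppb and Penk, and 3 lower (median -0.29). The lower ones process peptides: the convertases Pcsk7 (-1.74 and -2.28) and Pcsk6 (-1.39 and -1.46), and the amidating enzyme Pam (-1.27 and -1.56).

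Muscle genes were lower in 5 of 23 and higher in 2, with a median of -0.35. Des, the desmin of muscle intermediate filaments, had -5.24 and -4.73, the skeletal light chains Myl11 and Myl1 -5.09 and -4.79, and -2.25 and -2.71, and the M-band protein Myom2 -5.01 and -3.56. Tnnc1 was lower as well. The higher members were Myh9, the myosin of non-muscle cells (1.85 and 1.86), and Cnn3, a calponin found outside muscle (1.16 and 1.36). The mean of Myh9 was 1.86 in JB, 0.56 in JA and 0.65 in Amy.

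Epithelial genes had 4 of 20 higher and 3 lower (median -0.06). Cdh3, the P-cadherin of basal epithelial cells, had 2.15 and 1.91, the tight junction claudin Cldn1 1.42 and 1.25, S100a6 1.20 and 1.59, and Ctnna1, the alpha-catenin of adherens junctions, 1.18 and 1.19. Cldn1 had means of -0.55 in JA and -0.11 in Amy. Lower were Lgals7, the connexin Gjb1 (-1.10 and -2.25) and Cd24, a surface glycoprotein, at -5.17 and -4.95 with 7 clones from -6.10 to -2.43. The mean of Cd24 was -5.06 in JB, -3.06 in JA and -2.62 in Amy. Krt8, a keratin of simple epithelia, had 0.62 and 1.09. On the columnar list 1 of 7 genes was higher, Tspan8, and 2 were lower, Clu (-2.36 and -2.59) and the gastric protease Ctse (-1.50 and -1.76), with a median of -0.70. That median was -0.03 on the Cy3 array alone and -0.19 by the median of the spots. Of 5 retinoid genes, Mdk and Crabp2 were lower and 0 were higher (median -1.03).

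Among adhesion genes 2 of 26 were higher and 5 lower, with a median of 0.09. Alcam had 2.41 and 1.82, with clones at 0.86 and 3.37. Thy1 had -1.80 and -1.56, Parvb, which links integrins to actin, -1.25 and -1.78, and the semaphorin receptor Nrp1 -1.23 and -1.46. Proteases and inhibitors had 2 of 33 higher and 8 lower (median -0.05). Ctsh, a lysosomal cathepsin, had 1.09 and 1.94, and Ctsk, the collagen-degrading cathepsin, -3.21 and -4.05. Reck, a membrane inhibitor of metalloproteases, had -4.47 and -4.44, and the metalloprotease Adam19 -1.79 and -2.27.

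Cytoskeletal genes had 8 of 73 higher and 6 lower (median 0.13). Beside Arpc1b, the actin-binding Tmsb10 had 2.11 and 2.78, Msn, which ties actin to the membrane, 2.05 and 2.43, and the lamin Lmnb1 1.92 and 2.09. Gsn, the actin-severing gelsolin, had -4.28 and -3.80. Cfl2, the cofilin of muscle, had -2.99 and -2.74, with clones at -6.02 and 0.29. Actb, measured by 5 clones, had -0.26 and 0.98.

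Stress and redox lists held changes in both directions. Of 43 chaperone and ER stress genes 4 were higher and 2 lower (median 0.13). The mitochondrial chaperonin Hspd1 had 1.89 and 1.52 and the stress transcription factor Atf4 1.16 and 1.70, whereas Ddit3 (CHOP) had -1.33 and -1.08. Of 63 redox genes 7 were higher and 9 lower (median -0.12). Gss and Gsr, which make and reduce glutathione, had 2.38 and 2.17, and 1.87 and 2.29. Akr1b1, aldose reductase, had 2.61 and 2.62, with clones at 0.95 and 4.28. The extracellular superoxide dismutase Sod3 had -3.25 and -3.71, and the glutathione transferases Gstm2 and Gstm7 -2.94 and -3.58, and -2.42 and -2.45. Of 29 apoptosis and growth arrest genes 1 was higher and 3 lower (median -0.20). Aifm1 had 2.15 and 1.27, Sesn1, a stress-induced sestrin, -4.33 and -4.36, and Gadd45g -1.40 and -2.25.

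Lists of basic cell machinery had a smaller share of members past the fold than the whole set, and all but the ribosomal list had a median above it. Of 73 RNA processing genes 6 were higher and 6 lower (median 0.29). The helicase Ddx39a had 2.42 and 2.55 and nucleolin, Ncl, 2.05 and 1.81, whereas Snrpd1 had -2.25 and -1.85. Translation factors had 3 of 35 higher and 3 lower (median 0.31). Eif3b had 2.16 and 1.89. Of the repressors of cap-dependent translation, Eif4ebp1 had 1.34 and 1.52 and Eif4ebp2 -2.61 and -2.63. Eif2s1 had a mean of -1.36 in JB, -3.15 in JA and -2.65 in Amy. Mitochondrial genes had 7 of 98 higher and 2 lower (median 0.20), with Cox6a1 of complex IV at 1.02 and 1.32 and Ndufa1 of complex I at -1.15 and -1.07. Proteasome and ubiquitin genes had 4 of 99 higher and 10 lower (median 0.21). Psme3 and Psmd2, of the proteasome caps, had 1.39 and 1.45, and 1.22 and 1.47, and the ligase Trim2 -4.26 and -6.16. Ribosomal protein genes, which have many near-identical copies, had 1 of 30 higher and 2 lower (median -0.07).

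**Figure D4:**
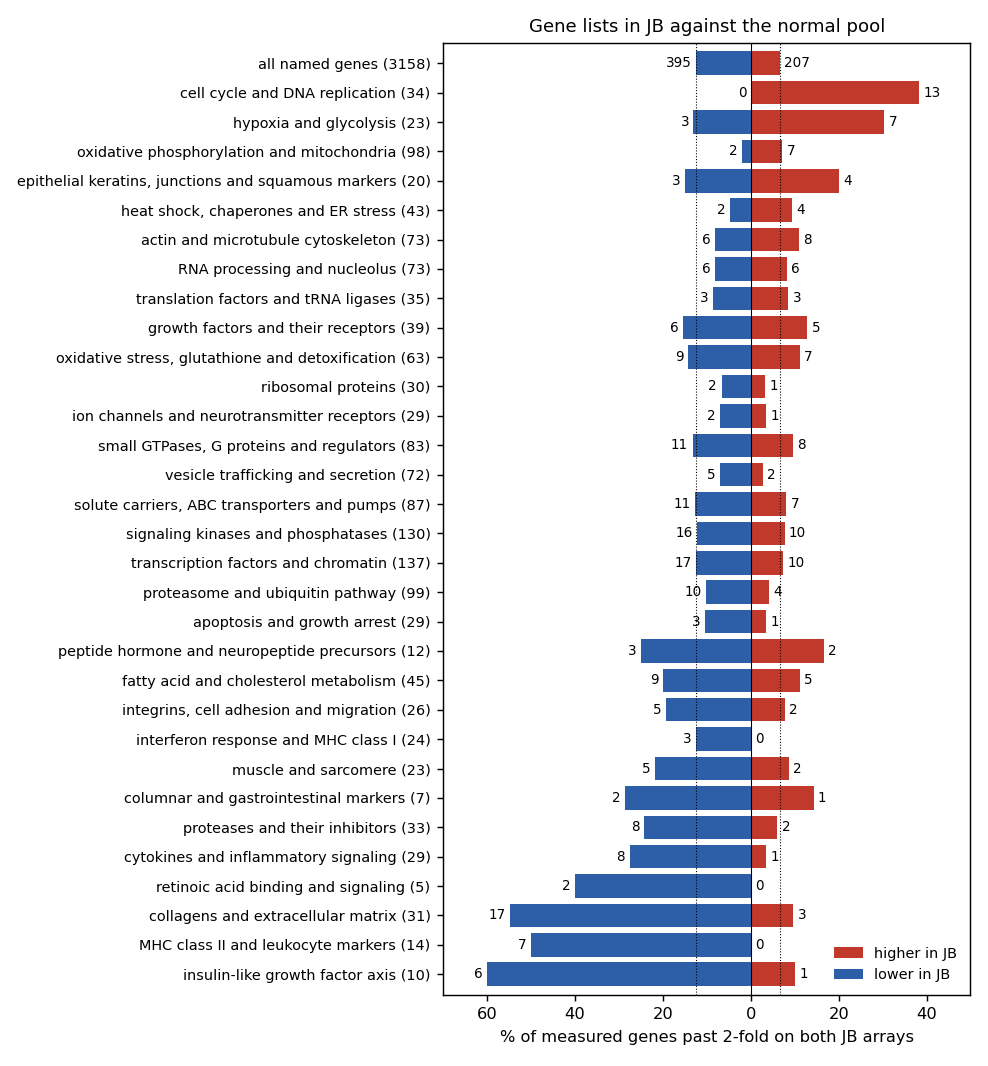
Percentage of the measured members of each of 31 lists that were higher or lower in JB by at least 2-fold on both arrays, with counts. Dotted lines mark the 6.55% and 12.5% of all named genes. The cell cycle list (13 of 34) has the largest share higher, and the lists of the insulin-like growth factor axis (6 of 10) and the matrix (17 of 31) the largest shares lower, with JB taken as the numerator.

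Transport and signaling lists were near the whole set in their medians. Solute carriers and pumps had 7 of 87 higher (8.05%) and 11 lower (12.6%), near the shares over all named genes (median -0.16). The glutamate transporter Slc1a3 had 3.33 and 1.64, and the water channels Aqp1 and Aqp4 -4.73 and -4.30, and -1.85 and -2.42. Ion channels and receptors had 1 of 29 higher and 2 lower (median -0.09), with Clic4 at 1.41 and 1.43 and the sphingosine phosphate receptor S1pr1 at -3.88 and -4.05. Small GTPases and G protein genes had 8 of 83 higher and 11 lower (median -0.05). Gng2, a G protein gamma subunit, had 2.41 and 2.61, Arl3 2.26 and 2.56, and Rgs2, which speeds GTP hydrolysis by G alpha subunits, 1.96 and 2.09. Rab5b had -3.36 and -3.63 and Rhoj -2.94 and -3.85. Vesicle genes had 2 of 72 higher and 5 lower (median -0.18). Ap2a2 of the clathrin adaptor had 1.83 and 1.60, and Dnm1, the dynamin of nerve cells, -2.07 and -1.92.

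Kinases and phosphatases had 10 of 130 higher (7.69%) and 16 lower (12.3%), near the shares over all named genes (median -0.03). Pak1, an effector of Rac, had 1.89 and 2.02, and Ppp1r15a (GADD34) 2.06 and 1.80. Csk, which inhibits Src kinases, had -3.77 and -3.27, Ppp1r16b -2.87 and -4.32, and Pim1 -2.70 and -3.20. Transcription and chromatin genes had 10 of 137 higher (7.30%) and 17 lower (12.4%), likewise near those shares (median 0.06). After Lmo1 came Klf7 (2.28 and 2.31), Hmgb2 (2.001 and 1.80) and Gtf3c1 (2.66 and 1.12). Sox18, a factor of endothelial development, had -3.51 and -3.30, and the homeobox genes Hoxb2 and Hoxc4 -2.06 and -3.22, and -2.15 and -2.72. Hoxc4 was lower in JA (-4.33) and Amy (-4.15) as well.

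On no list were 1750 named genes, of which 89 were higher (5.09%) and 207 lower (11.8%), near the 6.55% and 12.5% over all named genes. The following were picked from them after their values were seen. Atic and Umps, enzymes of purine and pyrimidine synthesis, had 2.51 and 2.49, and 2.11 and 2.53, and Ahcy, which clears S-adenosylhomocysteine, 2.13 and 2.42. Mybl2, a transcription factor of dividing cells, had 2.61 and 2.20, and Pclaf, a partner of Pcna, 2.19 and 1.92 with 3 clones from 1.91 to 2.15. Igf2bp2, an RNA-binding protein that binds Igf2 transcripts, had 2.90 and 2.36, while the imprinted non-coding RNAs H19 and Meg3 had -4.20 and -3.62, and -1.89 and -3.78. Odc1, the first enzyme of polyamine synthesis, had 1.34 and 2.10. On the lower side Ecm1 had -5.67 and -4.92, Cavin2 of caveolae -5.09 and -5.20, and Car3, a carbonic anhydrase abundant in muscle and fat, -5.09 and -4.95. The endothelial surface proteins Cd93 and Jam2 had -4.98 and -4.58, and -4.69 and -3.48. Hba-a2, an alpha globin, had -4.48 and -3.89, with 4 clones from -6.89 to -2.18.

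The threshold divides a continuum. Just inside the higher set were Slc44a1 (1.12 and 1.0007) and Mdfic (1.04 and 1.0007), and just outside it Ccz1 (0.9958 and 1.70) and Chrna3 (2.01 and 0.9928). Ncbp1 (-1.0004 and -1.11) and Palm (-1.003 and -1.23) were just inside the lower set, and Tmem42 (-1.34 and -0.9991) and Vamp3 (-0.9985 and -1.21) just outside. A further 221 genes passed the fold with the same sign on the Cy3 array only and 252 on the Cy5 array only. Signs were opposite in 599 genes, 16 of them past the fold on both arrays. The widest of these were Polg2 (-2.69 and 2.88), Adgrb3 (0.66 and -4.68), Npm1 (-2.48 and 2.21), Gmfg (1.46 and -2.85) and Ptpn21 (2.11 and -2.06). Several clones measured 50 of the 207 higher and 77 of the 395 lower genes, and every clone passed the fold in 29 and 40 of them.

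JB was then set against JA and Amy, a difference in which the shared pool cancels. It was tested with limma on 1 mean per line over 7180 features, named genes and clones without a single symbol together. JB is a lone sample assumed to vary like the other lines, and the spread comes from JA against Amy and its moderation across features. Under this assumption 17 features passed an adjusted p of 0.05 (0.237%), 15 higher (0.209%) and 2 lower (0.0279%) in JB, and 751 had an unadjusted p under that value. With the dye orientation as a replicate block and the line as a random block the number was 78, after centring each array it was 5, and without moderation of the variances it was 0. The calls of single genes therefore rest on the moderation. The replicate block fitted all 6 arrays, with a correlation of 0.370 between the arrays of a line. It thus took technical repeats as partly independent, so its larger count is no added evidence of a difference between lines. Of the 12 named genes among the 17, 10 were higher and 2 lower.

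Lpl had 1.40 and 1.01 in JB, -2.35 and -2.73 in JA, and -3.12 and -3.34 in Amy. JB stood above the pool and the other lines below it on every array, a difference of 4.09 ± 0.36 (SE, limma adjusted p = 0.031). Nid2 had 1.83 and 1.07 in JB, -2.12 and -3.56 in JA, and -1.73 and -2.66 in Amy, a difference of 3.97 ± 0.35 (limma adjusted p = 0.031). Heph, hephaestin, a copper oxidase of iron export, had the reverse pattern. It had -1.80 and -1.94 in JB, 1.68 and 1.77 in JA, and 2.10 and 1.47 in Amy, a difference of -3.62 ± 0.27 (limma adjusted p = 0.0292). The receptor kinase Axl (0.80 and 0.52 in JB), Fxyd5 (0.32 and 1.10) and S1pr4 (0.57 and 0.01) were near the pool in JB and lower than the pool in JA and Amy, with differences of 3.37, 3.08 and 2.74. Rgs2 had 1.96 and 2.09 in JB and means of -0.63 in JA and -0.97 in Amy, a difference of 2.82. Gnpda2, of amino sugar metabolism, was lower in JB (-2.47 and -2.72) than in JA (mean -0.24) and Amy (mean -0.24), by a difference of -2.35. The limma adjusted p of these 5 genes lay between 0.0393 and 0.0447 and their SE between 0.27 and 0.38. All 5 lost the call when arrays were centred on the median, with limma adjusted p from 0.0526 to 0.0546, and over all settings their adjusted p ran up to 0.822. The other named genes past the test with the arrays as deposited were Chka, Ptgs2os, Pnkd and Tmem45b, named outside the rule for single genes after their values were seen, with differences of 2.65, 2.62, 2.59 and 2.42. By size alone, 46 of 3158 named genes were higher and 30 lower in JB by at least 1 than in both other lines in both dye orientations. The same count was not made for JA or Amy, so it is no measure of what is particular to JB.

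**Figure D5:**
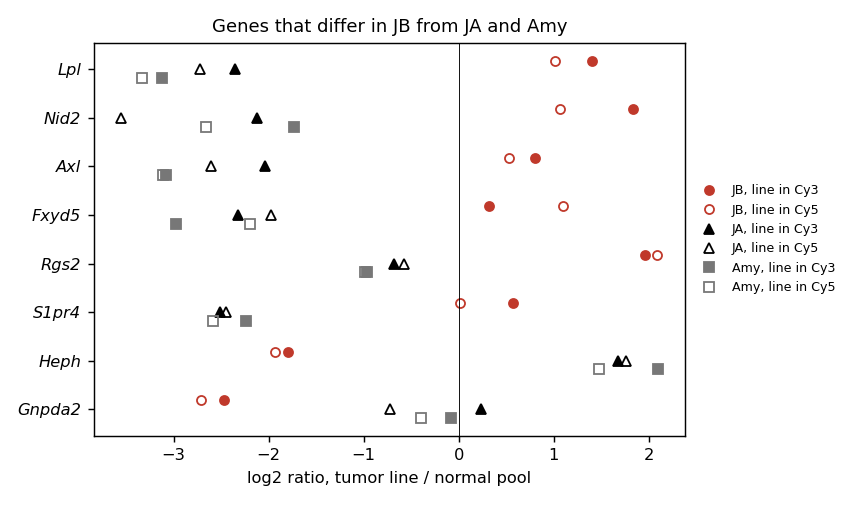
Log2 ratios over the normal pool of 8 genes in JB, JA and Amy, with each line in Cy3 and in Cy5. For Lpl and Nid2 the JB arrays lie above 0 and those of JA and Amy below it, and for Heph the reverse holds.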

How the data were processed

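Per the labels, each of the 6 arrays held 1 tumor line and the pool in opposite dyes. The deposited values, 1 log ratio per spot, were taken as log2; base, scale, centring and direction are not stated. The lowest spot was -12.7 over all arrays. The authors' scanner, background correction and normalization are not given in the sources used here. Intensities were not used, so a channel near background could not be recognized. The number of arrays limits the precision as well. The platform annotation gave 8084 of 16128 spots 1 symbol, 40 several and 8004 none, and 8076 matched RefSeq GRCr8 by gene identifier, with 0 symbols changed.

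Spots were averaged per gene and array, then over the 2 arrays, with no filter on low values (Python 3.11.15, pandas 2.3.3). Genes are named by these rules: the 15 furthest in each direction, up to 4 per list and direction, up to 6 per direction set apart from JA and Amy, 2 on each side of the threshold, 5 with the widest gap between arrays of opposite sign, 5 with the widest gap between clones, and 6 fixed genes, plus members needed to describe a list. The members and lists were chosen with earlier results of these data known, and 16 symbols caught only by spelling were taken off the lists. Lines were compared with limma 3.58.1 (lmFit and eBayes, two-sided, Benjamini-Hochberg, threshold 0.05) in R 4.3.3. The fit was run on simulated data in which JB varied like the other lines, so that run cannot check this assumption. Replicate numbers are dye orientations per the labels; the difference between orientations correlated between lines at 0.526 to 0.613, so the numbers pair the arrays. Alternatives changed scaling, dye handling, averaging and threshold.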

Additional observations from a re-analysis of the deposited data

Results flagged for a closer look

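With JB as a lone sample assumed to vary like JA and Amy, 17 of 7180 features passed a limma test of the difference between JB and those lines, and 0 passed without moderation of the variances. JB minus the mean of JA and Amy was 4.09 for Lpl, 3.97 for Nid2, 3.37 for Axl, 3.08 for Fxyd5, 2.82 for Rgs2, 2.74 for S1pr4, -3.62 for Heph and -2.35 for Gnpda2, in log2 units. The 8 genes were picked by size of the difference, up to 6 per direction. Each passed the limma test and differed from both other lines by at least 1 in both dye orientations. Chka, Ptgs2os, Pnkd and Tmem45b met the same criteria with smaller differences and were left out by the limit of 6. Each line is a single culture, so these values describe 3 cultures.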

How the results depend on the processing

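The 207 higher and 395 lower genes of JB became 239 and 361 when each array was centred on its median, 242 and 364 when also scaled to a common spread, and 189 and 410 after quantile normalization. With 1 array in place of 2 the counts ranged from 304 to 359 higher and from 514 to 602 lower. A 1.5-fold threshold gave 455 and 677, a log2 size of 1.5 gave 80 and 238, and a size of 2 gave 36 and 157. Counting only genes with several clones all past the fold, an alternative added after the data were seen, gave 29 and 40. Of 1632 values of named genes under 8 settings, 1475 moved by no more than the SD of the 2 arrays and 156 by more. A reversal was counted only for genes past the fold, and 1 was found: Ldha by its first clone alone, at -0.029. Sign changes of genes not past the fold were judged by size only. Polg2, with a mean of 0.09, had -2.69 on the Cy3 array alone and did not count as reversed. By construction, leaving out 1 array moves a mean by less than that SD, and removing the dye effect leaves it unchanged. The median of the spots and the first clone leave genes with 1 clone unchanged. Part of the 1475 was thus fixed in advance and is no measure of stability. Of the 31 list medians, 9 changed sign under a setting, each of a size up to 0.09; those of the cell cycle (0.58 to 0.80) and matrix lists (-2.06 to -1.86) did not. The 17 features by which JB differed from JA and Amy (15 higher, 2 lower) became 5 (4 and 1) after centring, 28 (18 and 10) after scaling, 65 (42 and 23) after quantile normalization, 0 (0 and 0) by limma without moderation of the variances (424 at an unadjusted p under 0.05), 81 (48 and 33) from the Cy3 arrays of the lines alone, 2 (1 and 1) from their Cy5 arrays, and 78 (53 and 25) with the replicate block. Lpl, Nid2 and Heph passed in 6 of 8 settings, Fxyd5, Rgs2, S1pr4 and Gnpda2 in 5 and Axl in 3. The adjusted p reached 0.816 for Lpl, Nid2, Fxyd5 and Rgs2, 0.778 for S1pr4, Heph and Gnpda2, and 0.822 for Axl. The cause of these shifts was not tested. The replicate block among these 8 settings takes technical repeats of a line as partly independent, so a pass there adds no replicate. Without JA or Amy 1 line remains against 1, so that alternative gives no test.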
